A study of Mus musculus with 16 samples.

Results

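The 10 genes described here encode the core of MHC class I antigen presentation. They are the rows of the gene count table whose Ensembl identifiers map to H2-K1, H2-D1, B2m, Tap1, Tap2, Tapbp, Psmb8, Psmb9, Psmb10 and Nlrc5, which makes 10 genes of 21965 in the table. All 10 passed the filter on low counts, as did 13811 genes in all. The tissue was the ileum of young adult male C57BL/6 mice on a liquid diet, and 1 RNA-seq library was made from each of 16 mice. WT PF mice (n = 4) were wild-type littermates pair-fed a control liquid diet in which maltose dextrin replaced the calories of ethanol. WT EtOH mice (n = 3) received ethanol in steps up to 6% v/v, with 3 weeks at that dose. The fat-1 PF (n = 4) and fat-1 EtOH (n = 5) mice were fed likewise and carried 1 copy of a transgene for the C. elegans fat-1 desaturase, which makes n3 from n6 polyunsaturated fatty acids throughout the body. The labels write this genotype as Fat1+/-, which here stands for that transgene.

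In every nucleated cell, proteasomes cut cytosolic proteins into peptides, the transporter TAP moves the peptides into the endoplasmic reticulum, and tapasin helps to load them onto a class I heavy chain held together by beta-2-microglobulin. CD8+ T cells, which in the gut include many intraepithelial lymphocytes, read the loaded molecules at the cell surface. Interferons raise the transcription of nearly all parts of this machinery, and NLRC5 is its dedicated transactivator.

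The library totals were 8422645 to 11438539 counts, and expression is given as CPM, TMM-scaled counts relative to library size. PF libraries were numbered 1 to 8 and EtOH libraries 9 to 16, so anything that followed the number cannot be told apart from diet. The labels do not say what the numbers stand for. The libraries also differed in genes that mark position along the gut. The summed CPM of 7 proximal small intestine markers such as Lct and Gata4 ran from 2150 to 58200 in the 8 PF mice and from 39.9 to 560 in the 8 EtOH mice. Of 6 large intestine markers such as Car1 and Aqp8, the sum was 5170 in WT EtOH replicate 2, 12100 in fat-1 EtOH replicate 3 and 13100 in fat-1 EtOH replicate 4, against 278 to 515 in the other 13 libraries. The sum of 3 ileum markers was lowest in fat-1 PF replicates 4 (250) and 2 (488). The B cell marker sum was 580 in fat-1 EtOH replicate 5 and 1.96 to 114 elsewhere. What these features contribute to the class I results was not tested.

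Of the 10 genes, 7 lie within the H2 complex on chromosome 17. H2-K1 (ENSMUSG00000061232, chr17:33996017-34000347) and H2-D1 (ENSMUSG00000073411, chr17:35262730-35267499) encode the classical heavy chains. Tapbp, the tapasin gene, starts at 33915899, and Psmb9, Tap1, Psmb8 and Tap2 follow one another between 34181987 and 34216321 (GRCm38). B2m lies on chromosome 2 (122147686 to 122153083), and Psmb10 and Nlrc5 lie on chromosome 8.

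RefSeq held a promoter entry for 8 of the 10 genes, and the upstream sequences of 4 of them are shown because genes under like promoters are compared below. Each is the 250 bases before the RefSeq start (GRCm38.p6), written along the gene's own strand. For H2-D1 that start lies 364 bases inside the gene coordinates given above, which came from GENCODE. Capitals mark matches on either strand to a kappa-B element (GGGATTCCC), an interferon regulatory factor core (AANNGAAA), a CRE-like X2 element (TGACG), a Y box (ATTGG) or an interferon-gamma activated site (TTCNNNGAA), letters chosen with these sequences in view.
H2-K1, chr17:34000348-34000597, minus strand: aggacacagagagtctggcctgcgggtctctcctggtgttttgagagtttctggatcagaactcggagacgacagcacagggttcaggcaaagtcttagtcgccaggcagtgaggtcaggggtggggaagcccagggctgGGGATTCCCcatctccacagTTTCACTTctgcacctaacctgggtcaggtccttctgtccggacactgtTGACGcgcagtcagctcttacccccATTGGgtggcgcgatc
H2-D1, chr17:35262844-35263093, plus strand: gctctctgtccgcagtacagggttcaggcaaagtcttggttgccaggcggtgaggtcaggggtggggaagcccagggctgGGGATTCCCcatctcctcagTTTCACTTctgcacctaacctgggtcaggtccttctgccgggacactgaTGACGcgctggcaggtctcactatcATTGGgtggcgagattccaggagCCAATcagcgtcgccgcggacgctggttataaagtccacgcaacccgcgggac
B2m, chr2:122147437-122147686, plus strand: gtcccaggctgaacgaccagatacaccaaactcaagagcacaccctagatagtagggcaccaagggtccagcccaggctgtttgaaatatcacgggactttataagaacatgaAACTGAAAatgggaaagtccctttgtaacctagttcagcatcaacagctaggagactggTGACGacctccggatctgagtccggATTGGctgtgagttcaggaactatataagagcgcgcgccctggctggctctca
Tap1, chr17:34187306-34187555, plus strand: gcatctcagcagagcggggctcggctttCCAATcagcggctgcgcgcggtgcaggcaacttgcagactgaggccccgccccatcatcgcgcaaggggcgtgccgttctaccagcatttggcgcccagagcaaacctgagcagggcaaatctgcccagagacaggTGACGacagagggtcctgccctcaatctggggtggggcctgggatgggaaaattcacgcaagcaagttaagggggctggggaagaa

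H2-K1 and H2-D1 were alike here, with 167 identical bases over an aligned stretch of 191 (87.4%), and both held the kappa-B letters, which 0.301% of 32851 RefSeq promoter entries hold in a window of this length. The interferon regulatory factor core was in H2-K1, H2-D1 and B2m and in 21.3% of all entries. H2-K1, H2-D1, B2m and Tap1 all held the X2 letters, found in 17.8% of entries, and the Y box letters, found in 33.8%. The Tap1 window also serves Psmb9 on the other strand: the RefSeq starts of the genes lie 226 bases apart and the windows have 225 bases in common. Among the windows not shown, Psmb8 held only the interferon-gamma activated site letters (7.02% of entries) and Tapbp only the Y box letters. The Psmb10 window held no match to any of the letters. A match is a description of letters and not evidence of binding.

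Per kilobase of exon, the levels in the 8 PF mice differed widely, with B2m highest and Nlrc5 lowest. B2m was at 2060 ± 406 CPM per kb (SD, n = 8), H2-K1 at 644 ± 196 and H2-D1 at 451 ± 58.0. The intervals of the heavy chains overlapped at 1 SD. Next came Psmb10 at 137 ± 34.2, Tapbp at 94.9 ± 23.5 and Psmb8 at 42.0 ± 12.8 CPM per kb. Tap2 (17.5 ± 5.11), Psmb9 (16.8 ± 3.56) and Tap1 (14 ± 1.92) could not be ordered beyond their spread. Nlrc5 was lowest at 1.27 ± 0.586 CPM per kb, and no library had fewer than 42 counts for it.

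The order of the group means was the same for 7 of the 10 genes (H2-K1, H2-D1, B2m, Tapbp, Psmb8, Psmb9 and Psmb10): highest in fat-1 PF, then WT PF, then WT EtOH, and lowest in fat-1 EtOH. Tap1 was higher in WT PF than in fat-1 PF, Tap2 was lower in WT EtOH than in fat-1 EtOH, and Nlrc5 ran the other way, with its highest mean in fat-1 EtOH and its lowest in fat-1 PF. That highest mean of Nlrc5 rested on replicate 5 (49.5 CPM). By median, fat-1 EtOH was lowest for Nlrc5 (6.29 CPM, against 7.64 in fat-1 PF, 11.4 in WT PF and 12.5 in WT EtOH). For the 7 genes, the last place of fat-1 EtOH rested on few libraries, as given with the genotype comparison. The first place of fat-1 PF was not firm for Psmb8. With 1 library left out, its log2 fold change of fat-1 against WT in PF mice ran from -0.03 to 0.45. Within each diet the neighbouring groups of this order overlapped for all 10 genes.

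**Figure D1:**
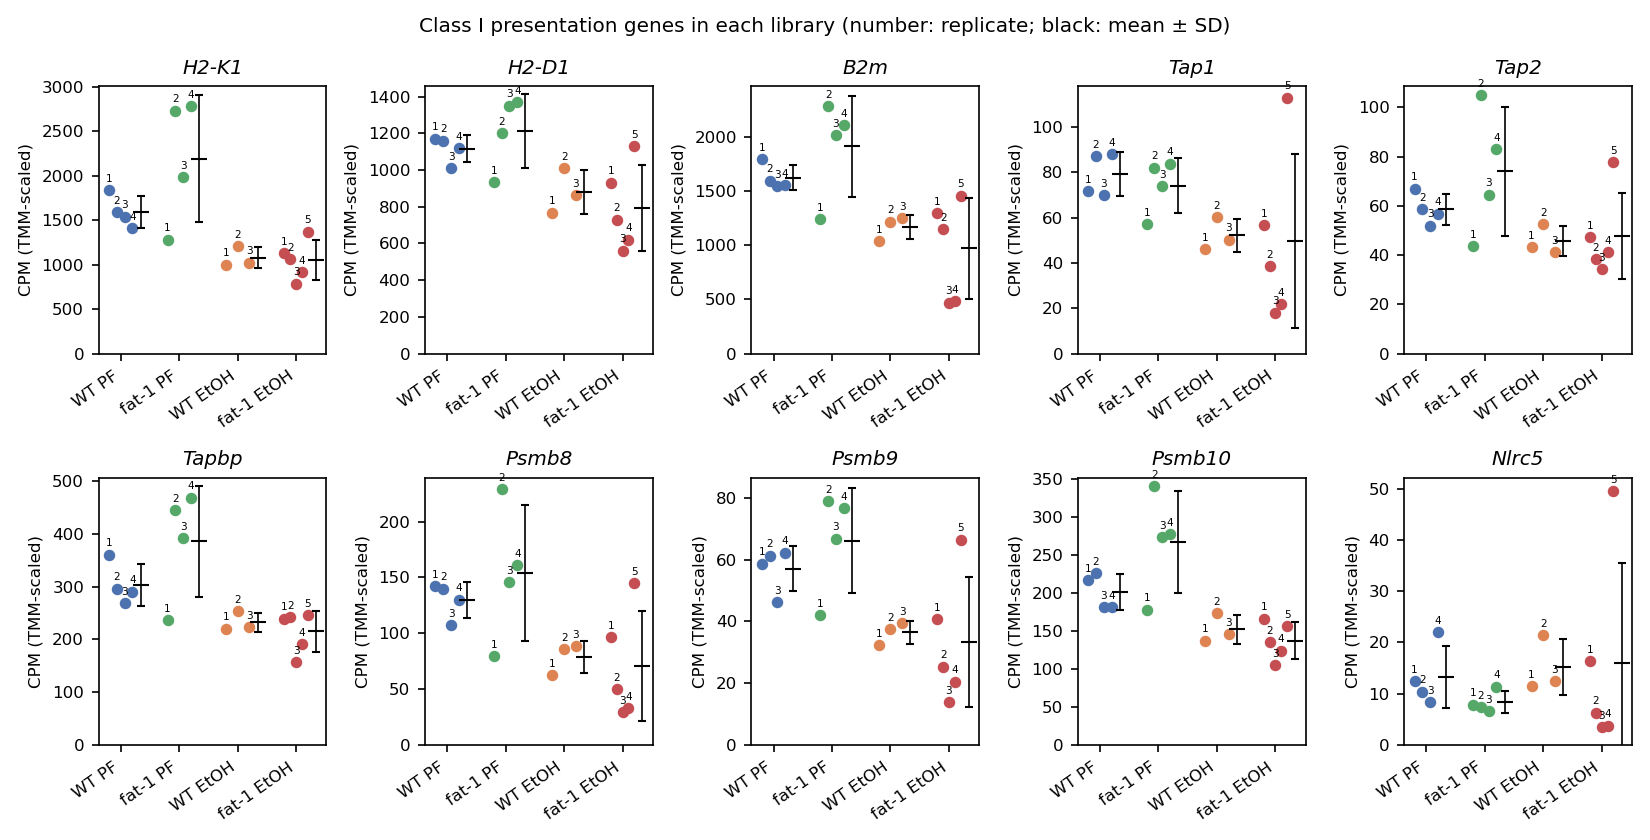
CPM of each class I presentation gene (vertical axis, linear from 0) in each library of the 4 groups (horizontal axis), with the replicate number beside each point and the mean ± SD in black; the lower SD bar of Nlrc5 in fat-1 EtOH passes below the axis. Psmb10 is below its PF values in all EtOH mice of both genotypes, fat-1 EtOH replicate 5 is the highest of its group for 9 of the 10 genes, and fat-1 PF replicate 1 is the lowest of its group for all but Nlrc5.

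The first question was whether EtOH altered class I presentation in WT mice. In the edgeR fit over all 16 libraries, 0 of the 10 genes passed an adjusted p of 0.05 (0.0796% of all 13811 genes did), 1 had an unadjusted p under 0.05 (14.1% of all genes did), and DESeq2 also called 0 (2.11% of the genes with an adjusted p). The values in the mice were nevertheless apart. For 8 of the 10 genes every WT EtOH mouse was below every WT PF mouse, a pattern seen for 12.1% of all genes. The median log2 fold change of the 10 genes was -0.44, beside 0.0116 for all genes tested.

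H2-K1, the heavy chain gene of the K locus, was read at 1840, 1590, 1540 and 1410 CPM in WT PF mice and at 998, 1210 and 1020 CPM in WT EtOH mice. The highest EtOH value lay below the lowest PF value, and the log2 fold change was -0.57 ± 0.25 (SE; edgeR, unadjusted p = 0.0376, adjusted p = 0.323). The exact permutation test, two-sided, gave p = 0.0286 for H2-K1, the smallest that 4 against 3 mice allow. H2-D1, B2m, Tap1, Psmb8 and Psmb10 had the same exact p. It was 0.0571 for Tapbp and Psmb9, 0.0857 for Tap2 and 0.571 for Nlrc5, all without adjustment for the number of genes. H2-D1 stood at 1170, 1160, 1010 and 1120 CPM against 768, 1010 and 861 CPM, with the closest EtOH and PF values equal at 3 digits (-0.34 ± 0.22 on the log2 scale, adjusted p = 0.492 by edgeR). B2m, the light chain that every class I molecule needs, stood at 1800, 1600, 1550 and 1560 CPM in WT PF and at 1040, 1220 and 1250 CPM in WT EtOH (-0.47 ± 0.35, adjusted p = 0.562 by edgeR).

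The peptide supply genes lay the same way. Psmb8, an inducible catalytic subunit of the immunoproteasome, was at 142, 140, 107 and 130 CPM in WT PF and at 62.5, 85.8 and 88.2 CPM in WT EtOH mice. Its log2 fold change of -0.72 ± 0.48 was the largest of the 10 genes in WT mice and did not pass (edgeR, adjusted p = 0.508). Psmb9, Psmb10, Tap1 and Tapbp also did not overlap between the diets, with log2 fold changes of -0.65, -0.41, -0.60 and -0.39. Tap2, which forms the TAP transporter with Tap1, overlapped through WT EtOH replicate 2 (52.6 CPM) and WT PF replicate 3 (51.9 CPM). Nlrc5 overlapped fully, at 8.33 to 22 CPM in WT PF and 11.5 to 21.4 CPM in WT EtOH.

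The WT count depended on the fit. The one over all 16 libraries estimates the spread from both genotypes. Fitted on the 7 WT libraries alone, edgeR called 5 genes lower (H2-K1, B2m, Tap1, Psmb8 and Psmb9), where 4.29% of all genes were called lower. With limma voom and sample quality weights, 7 were called lower (H2-K1, H2-D1, B2m, Tapbp, Psmb8, Psmb9 and Psmb10), beside 10.4% of all genes. Proximal markers differed between the same mice, at 2150 to 16500 summed CPM in WT PF and 417 to 500 in WT EtOH.

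In fat-1 mice, EtOH feeding went with lower expression of most of the machinery. Of the 10 genes, 7 fell (edgeR, adjusted p of 0.05 or less), against 18.8% of all genes called lower and 37.4% called in either direction. H2-K1 fell 2.08-fold, Psmb8 2.17-fold, Psmb9 1.98-fold, B2m 1.97-fold, Psmb10 1.95-fold, Tapbp 1.79-fold and H2-D1 1.53-fold. The median log2 fold change of the 10 genes was -0.901, beside 0.0538 for all genes. Only Psmb10 had no overlap between the diets, a pattern seen for 13.4% of all genes.

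**Figure D2:**
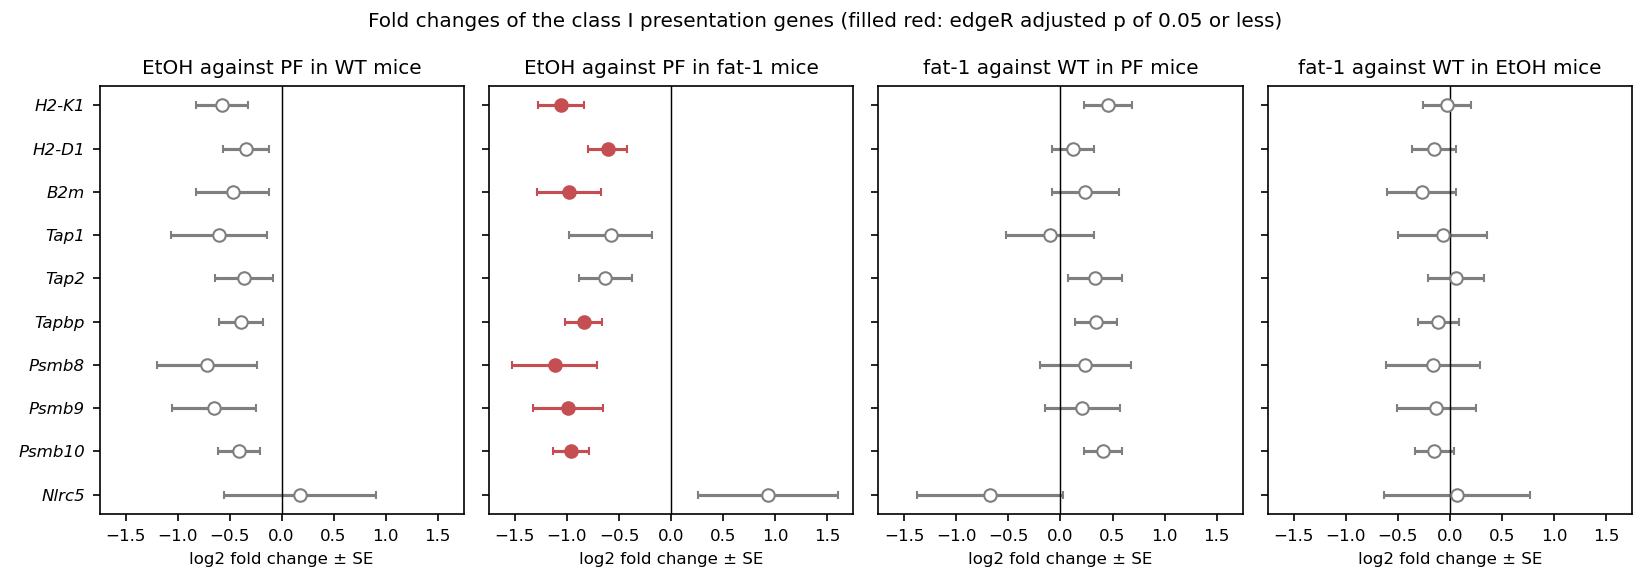
Log2 fold change ± SE (horizontal axis) of the 10 genes (vertical axis) in 4 comparisons, edgeR fit over 16 libraries; filled red points passed an adjusted p of 0.05. In the 2 diet comparisons 9 genes lie left of 0 and Nlrc5 lies right of it, and the 2 genotype comparisons hold no filled point.

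Among the heavy and light chains, H2-K1 stood at 1280, 2730, 1980 and 2780 CPM in fat-1 PF mice and at 1130, 1060, 787, 911 and 1370 CPM in fat-1 EtOH mice. The only overlap came from fat-1 PF replicate 1, which was lower than its 3 group mates, and fat-1 EtOH replicate 5. The log2 fold change of H2-K1 was -1.06 ± 0.22 (edgeR, adjusted p = 0.00217). H2-D1 stood at 935, 1200, 1350 and 1370 CPM against 930, 730, 560, 621 and 1130 CPM (-0.61 ± 0.19, edgeR adjusted p = 0.0218). B2m was at 1240, 2290, 2020 and 2110 CPM in fat-1 PF and at 1300, 1150, 469, 485 and 1460 CPM in fat-1 EtOH mice. The B2m values of fat-1 EtOH replicates 3 and 4 were below every other library of the study (-0.98 ± 0.31, edgeR adjusted p = 0.022). Both heavy chain genes have stretches identical to other annotated genes, among them other class I genes. Of their 75-base windows, 3.1% are shared for H2-K1 and 5.56% for H2-D1, so a part of their counts is uncertain.

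Among the peptide transport and loading genes, Tapbp was at 236, 445, 392 and 468 CPM in fat-1 PF and at 239, 242, 157, 191 and 246 CPM in fat-1 EtOH mice (-0.84 ± 0.18, edgeR adjusted p = 0.00336). Again, fat-1 PF replicate 1 sat among the EtOH values. Tap1 stood at 57, 82, 73.8 and 83.8 CPM against 56.7, 38.7, 18.0, 21.9 and 113 CPM, and did not pass (-0.58 ± 0.40, edgeR adjusted p = 0.263). The fat-1 EtOH mice held both the highest and the lowest Tap1 values of the study. Tap2 stood at 43.6, 105, 64.6 and 83.0 CPM against 47.3, 38.4, 34.2, 41.2 and 77.7 CPM (-0.63 ± 0.25, edgeR adjusted p = 0.0575). Without fat-1 EtOH replicate 5, both passed, with log2 fold changes of -1.12 for Tap1 and -0.86 for Tap2 (edgeR, adjusted p = 0.00876 and 0.0065), and 9 of the 10 genes were called, beside 17.9% of all genes called lower. In the same fit 8 of 11 T cell, intraepithelial lymphocyte and NK cell markers were called lower, against 2 with all libraries, and their median log2 fold change was -1.16, against -0.32. Their part in the class I values was not tested. For Tapbp 18.6%, for Psmb8 9.97% and for Tap2 8.27% of 75-base windows are shared with other annotated genes, mostly on the opposite strand, and the strand setting of the counting was not given in the sources used here.

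The immunoproteasome swaps its catalytic subunits for Psmb8, Psmb9 and Psmb10, which favors cleavage after residues that fit class I grooves. Psmb10 was at 178, 340, 273 and 277 CPM in fat-1 PF mice and at 166, 135, 105, 124 and 156 CPM in fat-1 EtOH mice. All 5 EtOH mice were below all 4 PF mice (-0.96 ± 0.17, edgeR adjusted p = 0.00101), and the exact permutation test, two-sided, gave p = 0.00794, the smallest that 5 against 4 mice allow. For the other 6 called genes the same exact test gave 0.0159 (H2-K1), 0.0317 (H2-D1, Tapbp and Psmb9), 0.0556 (B2m) and 0.0873 (Psmb8), so B2m and Psmb8 were not below 0.05 in it. None of these exact p-values was adjusted for the number of genes tested. Psmb8 stood at 79.8, 229, 146 and 161 CPM against 96.5, 49.8, 29.5, 32.7 and 145 CPM (-1.12 ± 0.41, edgeR adjusted p = 0.0457). This call was close to the threshold, and it was kept in 3 of the 16 fits that left out 1 library. Psmb9 stood at 41.9, 78.9, 66.7 and 76.7 CPM against 40.6, 25.3, 13.9, 20.5 and 66.4 CPM (-0.99 ± 0.34, edgeR adjusted p = 0.0368). In both genes fat-1 EtOH replicates 3 and 4 were the lowest of all libraries, and replicate 5 reached the PF range.

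Nlrc5, the transactivator of these genes, did not pass in fat-1 mice. It was at 7.84, 7.44, 6.56 and 11.4 CPM in fat-1 PF and at 16.4, 6.29, 3.53, 3.75 and 49.5 CPM in fat-1 EtOH mice. The fitted log2 fold change of 0.93 ± 0.67 (edgeR, adjusted p = 0.284) rests on replicate 5, and the median was 7.64 CPM in fat-1 PF and 6.29 CPM in fat-1 EtOH. Without that library the log2 fold change was -0.14 (edgeR, adjusted p = 0.833).

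Of the 7 calls, 4 depended on single libraries. Tapbp, Psmb10 and H2-K1 were called whichever 1 library was left out, B2m in 14 of these 16 fits, H2-D1 in 12, Psmb9 in 10 and Psmb8 in 3. The count was 4 without fat-1 PF replicate 2 (beside 14.3% of all genes called lower), fat-1 PF replicate 3 (16.5%), fat-1 EtOH replicate 3 (15.6%) or fat-1 EtOH replicate 4 (16.8%), and 3 without fat-1 PF replicate 4 (15.1%). It was 4 with upper-quartile scaling (12.7%) and 3 when fitted on the fat-1 libraries alone (11.9%). Without the 3 EtOH libraries high in large intestine genes it was 4 (H2-K1, B2m, Tapbp and Psmb10), beside 15.8% of all genes. Without fat-1 PF replicates 2 and 4, which were highest in proximal markers, Psmb10 was the 1 of the 10 genes called, a share near the 7.95% of all genes called lower in that fit, and the median log2 fold change of the 10 genes was -0.585. Summed proximal markers spanned 11700 to 58200 CPM among fat-1 PF and 39.9 to 560 CPM among fat-1 EtOH mice. T cell, intraepithelial lymphocyte and NK cell markers spanned 139 to 222 CPM in fat-1 PF mice and summed to 32.4 and 32.1 CPM for fat-1 EtOH replicates 3 and 4 but to 282 CPM for replicate 5. Smooth muscle markers rose in the same comparison (5 of 5 called, median log2 fold change 1.47), with sums of 817 to 1190 CPM in fat-1 PF mice and 1620 to 3540 CPM in fat-1 EtOH mice, where replicates 4 (3540 CPM) and 3 (3260 CPM) were highest. In WT mice their sums were 947 to 1270 CPM with PF and 1760 to 2280 CPM with EtOH, and 0 of 5 were called (edgeR). The epithelium markers, of which 2 rose and 2 fell in fat-1 mice, summed to 13800 to 19100 CPM in fat-1 PF mice and to 10400 to 17900 CPM in fat-1 EtOH mice, lowest in replicates 3 and 4. The part of these tissues in the class I result was not tested. All 11 T cell, intraepithelial lymphocyte and NK cell markers and all 7 of B cells were read above 0 in each group. In bulk tissue, fewer cells of a type and less RNA per cell cannot be told apart.

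**Figure D3:**
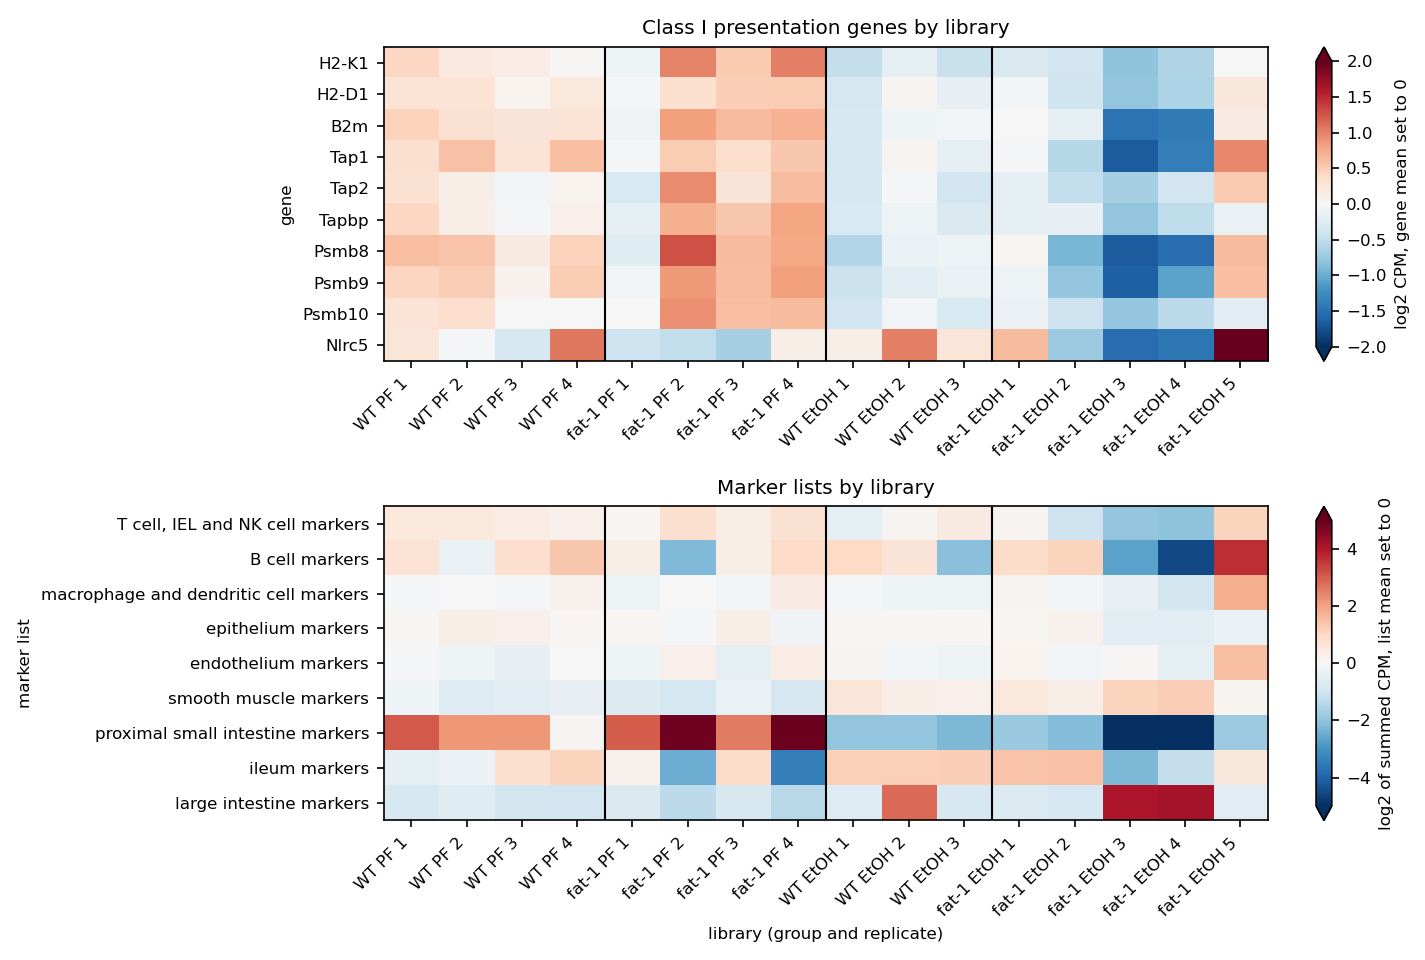
Upper panel, log2 CPM of each class I gene minus its mean over the 16 libraries; lower panel, log2 of the summed CPM of each marker list minus its mean over the libraries. Columns are libraries, lines separate the groups and colors saturate at the ends of each bar. Of the 10 class I genes, 9 have their 2 lowest values in fat-1 EtOH replicates 3 and 4 (Tap2 is lowest in replicate 3 but not next lowest in replicate 4), where large intestine markers are red and lymphocyte markers blue.

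The genotype itself was examined within each diet. In PF mice, 0 of the 10 genes differed between fat-1 and WT (edgeR; 0% of all genes were called), and 1 had an unadjusted p under 0.05, where 12.7% of all genes did. DESeq2 called 0 of the 9 members to which it gave an adjusted p (2.56% of such genes), and limma voom called 0 of 10 (0.224%). The log2 fold changes of fat-1 against WT ran from -0.68 ± 0.70 (Nlrc5) to 0.46 ± 0.23 (H2-K1). H2-K1 in fat-1 PF replicates 2, 3 and 4 was above all WT PF mice, whereas replicate 1 was below all of them. In EtOH mice, 0 of the 10 genes were called (edgeR; 0.00724% of all genes were), DESeq2 (0.0363%) and limma voom (0.00724%) called 0 members, and 0 had an unadjusted p under 0.05 (4.86%). The log2 fold changes ran from -0.27 ± 0.33 (B2m) to 0.07 ± 0.70 (Nlrc5). Their signs rested on few libraries. Without the 3 EtOH libraries high in large intestine genes all 10 were above 0, from 0.10 (Psmb10) to 1.00 (Nlrc5).

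By the fitted values the EtOH difference was more negative in fat-1 than in WT mice for 8 of the 10 genes, but for 4 of 10 without the 3 EtOH libraries high in large intestine genes. In that fit the median log2 fold change of the 10 genes was -0.541 (fat-1) and -0.508 (WT), against -0.901 and -0.44 with all libraries. The interaction of genotype and diet called 0 of the 10 genes (edgeR; 0% of all genes), and DESeq2 and limma voom called 0 members (0% of all genes by each). Psmb10 was the 1 member with an unadjusted p under 0.05 (8.26% of all genes had one), with an interaction of -0.55 ± 0.26 on the log2 scale (edgeR, adjusted p = 0.595). The diet difference was therefore not shown to differ between the genotypes.

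To ask whether the immunoproteasome genes differed beyond the proteasome as a whole, each was set against the constitutive subunit it replaces, as a log2 ratio per exon length within a library, in which the library scaling cancels. In fat-1 mice Psmb10 exceeded Psmb7, its counterpart, by 2.45 ± 0.51 (SD, n = 4) with PF and by 1.82 ± 0.14 (SD, n = 5) with EtOH. The difference was -0.63 (two-sided exact permutation p = 0.0476, adjusted p = 0.212 over the 10 tests of 5 ratios). The Psmb8 to Psmb5 ratio was -0.18 ± 0.61 in fat-1 PF and -1.17 ± 1.14 in fat-1 EtOH mice (difference -0.98, exact permutation p = 0.159, adjusted p = 0.227). In WT mice the same ratio was -0.21 ± 0.21 (n = 4) and -0.76 ± 0.27 (n = 3), with no overlap (difference -0.55, exact permutation p = 0.0286, adjusted p = 0.212). Psmb9 to Psmb6 differed by -0.49 (fat-1) and -0.31 (WT), with overlap in both. None of the 10 tests passed after adjustment. With 4 against 3 mice the smallest exact p is 0.0286, so a WT ratio could pass only if at least 6 of the 10 tests reached a p that small.

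**Figure D4:**
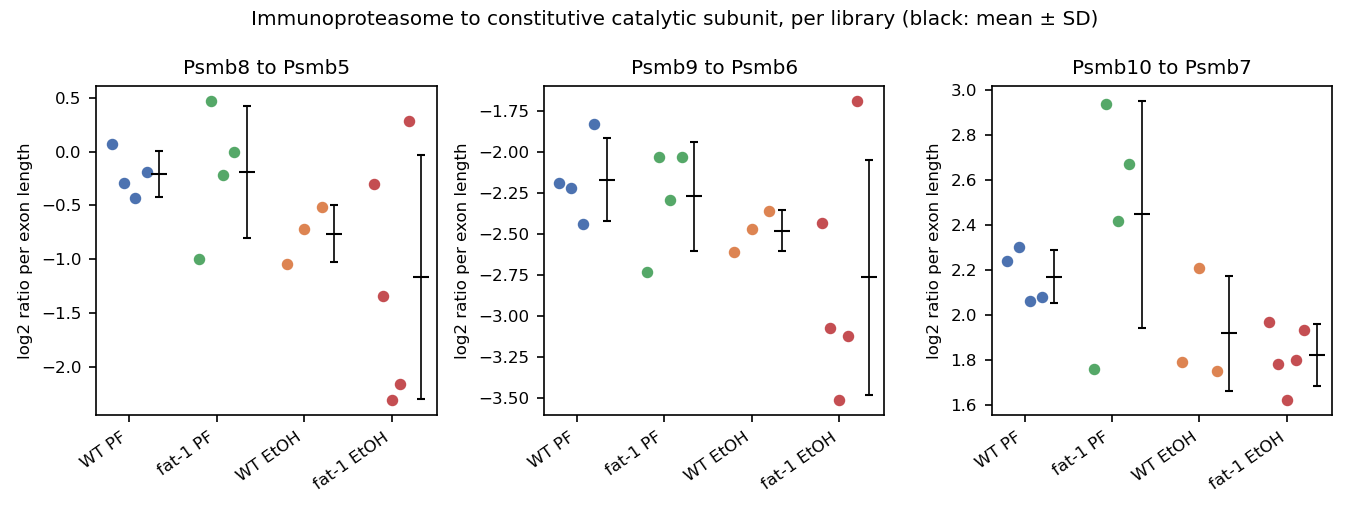
Log2 ratio, per exon length, of each immunoproteasome subunit to the constitutive subunit it replaces (vertical axes, not starting at 0) in every library of the 4 groups, with the mean ± SD in black. The means with EtOH lie below those of PF in all 3 panels, and the fat-1 EtOH points of Psmb8 to Psmb5 spread from -2.31 to 0.28.

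The log2 ratio of the heavy chain genes, H2-K1 over H2-D1, differed by -0.38 in fat-1 mice (exact permutation p = 0.0635, adjusted p = 0.212) and by -0.22 in WT mice (exact permutation p = 0.114, adjusted p = 0.227). Replicates 3 and 4 of fat-1 EtOH had H2-K1 to B2m log2 ratios of -1.03 and -0.86, and the other 14 libraries had ratios between -2.07 and -1.38. B2m was therefore low in those 2 libraries relative to H2-K1 as well.

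The constitutive proteasome genes were also lower in fat-1 EtOH mice. Psmb6 was called at -0.64 ± 0.10 on the log2 scale, and Psmb5 and Psmb7 at -0.31 ± 0.09 each (edgeR, adjusted p = 0.00054, 0.016 and 0.0117). With upper-quartile scaling, which moves the median of all genes from 0.0538 to 0.203, Psmb6 was the 1 of these 3 still called. Without the 3 EtOH libraries high in large intestine genes Psmb7 was not called (-0.20, edgeR adjusted p = 0.121). Without fat-1 PF replicates 2 and 4 Psmb5 was not called, at a log2 fold change that stayed as large (-0.32, edgeR adjusted p = 0.0792). Psmb7 was called in that fit (-0.43, edgeR adjusted p = 0.0204). Of 12 other core subunits and assembly factors, 10 fell, beside 18.8% of all genes, with a median of -0.451 over the 12 tested. The falls were led by the assembly chaperone Pomp (-0.62), Psma7 (-0.47) and Psmb4 (-0.47). Without the 3 EtOH libraries high in large intestine genes 7 fell, beside 15.8% of all genes. Of 4 proteasome activator genes 3 fell, and the interferon-inducible Psme2 (-1.20 ± 0.18) and Psme1 (-0.82 ± 0.18) had the largest falls, while Psme3, which is not interferon-inducible, was at -0.33 ± 0.08. Without fat-1 PF replicates 2 and 4, 2 activator genes were called, beside 7.95% of all genes called lower, and Psme1 was at -0.61 (edgeR, adjusted p = 0.0717). Psme2 stood at 255, 487, 379 and 456 CPM in fat-1 PF and at 199, 175, 126, 158 and 196 CPM in fat-1 EtOH mice, without overlap.

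Other heavy chains of the H2 complex included the largest differences among class I genes. Of 12 tested, 5 fell in fat-1 EtOH mice (edgeR, beside 18.8% of all genes), and 0 were called in WT mice. Without fat-1 EtOH replicate 5 the fat-1 count was 8, beside 17.9% of all genes called lower. It was 4 without the 3 EtOH libraries high in large intestine genes (15.8%) and 3 without fat-1 PF replicates 2 and 4 (7.95%). H2-Q2 was at 534, 1280, 588 and 1050 CPM in fat-1 PF and at 233, 205, 138, 146 and 168 CPM in fat-1 EtOH mice (-2.27 ± 0.28, adjusted p = 0.000247). H2-Q2 in WT mice was at 662, 611, 587 and 306 CPM with PF and at 197, 234 and 221 CPM with EtOH, also without overlap (-1.32 ± 0.32, adjusted p = 0.151). H2-Q1 lay the same way, at -2.46 ± 0.35 in fat-1 mice (adjusted p = 0.000325). H2-Q10 had the largest fitted value, -3.23 ± 0.59 (adjusted p = 0.00131), but was at 18.0, 87.6, 4.65 and 72.9 CPM in fat-1 PF and at 3.42 to 7.32 CPM in fat-1 EtOH mice. Without fat-1 PF replicates 2 and 4 it was -1.22 and did not pass (adjusted p = 0.0659). H2-T3, which encodes the thymus leukemia antigen bound by CD8 alpha homodimers on intraepithelial lymphocytes (-1.04 ± 0.17, adjusted p = 0.000694), and H2-T23, which encodes Qa-1 (-0.70 ± 0.18, adjusted p = 0.00879), also fell, but H2-T23 did not pass without the 3 EtOH libraries high in large intestine genes (-0.57, edgeR adjusted p = 0.0565) or without fat-1 PF replicates 2 and 4 (-0.58, edgeR adjusted p = 0.0981). H2-Q1, H2-Q10 and H2-T23 share identical stretches with H2-K1 or H2-D1, so a part of their counts is also uncertain. Stretches that H2-Q2 and H2-T3 may share with genes outside the 10 were not examined.

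Fat-1 EtOH replicate 5 held 87.8 CPM of H2-Q6 and 83.7 CPM of H2-Q7, against 6.16 to 24.5 CPM over both genes in all other libraries. Of 4 class I-like genes outside the complex, Mr1, which presents microbial vitamin metabolites, rose (1.17 ± 0.22, edgeR adjusted p = 0.00132), with fat-1 PF mice at 2.19 to 2.81 CPM and fat-1 EtOH mice at 4.25 to 7.19 CPM. Of 8 peptide trimming and loading genes, Tapbpl fell (-0.36 ± 0.12) and Lnpep rose (0.58 ± 0.11). The Tapbpl call was lost with upper-quartile scaling, without the 3 EtOH libraries high in large intestine genes and without fat-1 PF replicates 2 and 4.

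Of 16 known regulators tested in fat-1 mice, 6 fell and 2 rose, beside 18.8% of all genes called lower and 37.4% called in either direction. The largest falls were in Ifngr2 (-0.73 ± 0.14), a chain of the interferon-gamma receptor, in Jak2 (-0.72 ± 0.21), which signals from it, and in Rfxank (-0.63 ± 0.15), a subunit of the RFX complex that binds class I and class II promoters. Rfx5 (0.65 ± 0.23) and Ifngr1 (0.44 ± 0.15) rose. Irf1, which binds the interferon regulatory factor core, fell by 0.48 ± 0.15 (edgeR, adjusted p = 0.0207). Without the 3 EtOH libraries high in large intestine genes 3 regulators fell, beside 15.8% of all genes. Without fat-1 PF replicates 2 and 4 only 1 regulator fell and 0 rose, beside 7.95% of all genes called lower. Ifng itself had 0 counts in all 4 fat-1 PF libraries, where 3 counts would be 0.318 to 0.421 CPM, and at most 0.38 CPM elsewhere.

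**Figure D5:**
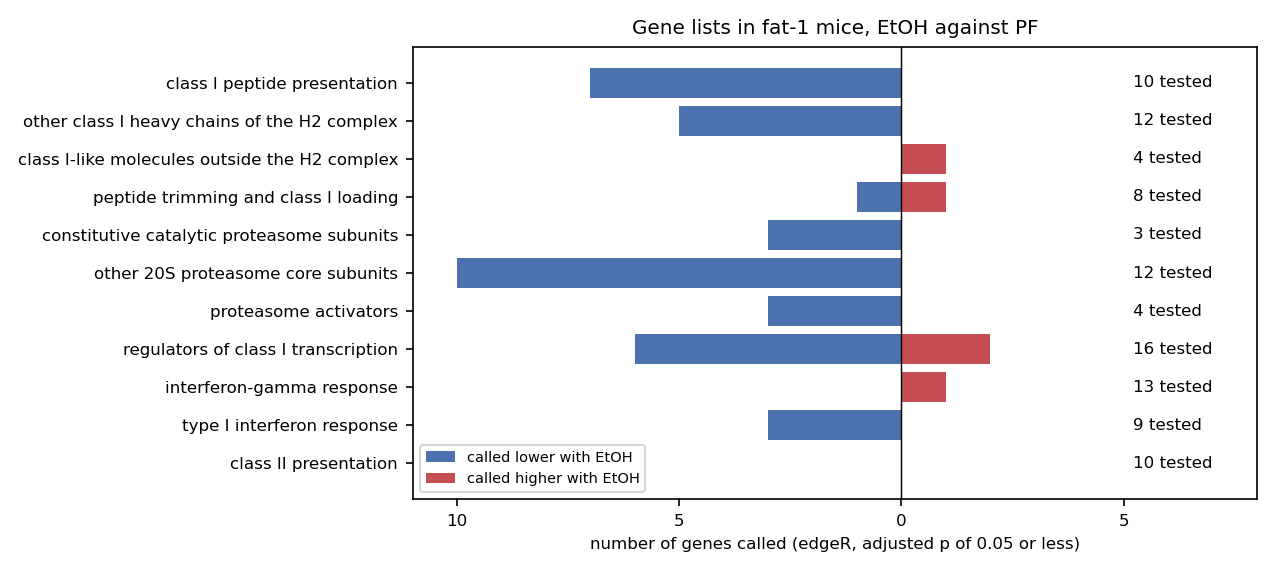
Number of genes called lower (left) and higher (right) with EtOH in fat-1 mice, by edgeR with an adjusted p of 0.05 or less, for each gene list, with the number tested at the right. The 10 class I presentation genes have 7 called lower, the other core proteasome subunits 10 of 12, and class II presentation 0 of 10.

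Among interferon-response genes outside the class I pathway in fat-1 mice, of 13 interferon-gamma response genes 1 rose (Irgm1, 0.55 ± 0.16) and 0 fell, with a median of 0.244. Without fat-1 EtOH replicate 5 this median was -0.184, and without fat-1 PF replicates 2 and 4 none of the 13 was called. Of 9 type I interferon response genes 3 fell, Isg15 (-1.79 ± 0.47), Usp18 (-1.20 ± 0.45) and Ifit1 (-1.18 ± 0.33), and none of these was called without fat-1 PF replicates 2 and 4. Of 10 class II presentation genes 0 were called in either genotype (edgeR), and their medians were -0.334 (fat-1) and -0.534 (WT). In fat-1 mice the class II median was -1.28, with 2 genes called lower, without fat-1 EtOH replicate 5, and 0.292, with 1 called higher, without the 3 EtOH libraries high in large intestine genes.

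Across the 16 libraries, 9 of the 10 genes varied together. The correlation of each gene with the mean of the other 9, as centered log2 CPM, ran from 0.84 (Psmb10) to 0.984 (Psmb9), and was 0.455 for Nlrc5. These are descriptions over libraries that share diet, position along the gut and scaling. The closest pair was Psmb8 and Psmb9 (r = 0.982), and Psmb10 was closer to H2-K1 (r = 0.963) and Tapbp (r = 0.958) than Nlrc5 was to either (r = 0.163 and 0.178). Outside the 10, the genes most like their mean were Rhbdf2 (r = 0.945), Psme1 (r = 0.934), Uba7 (r = 0.933), Isg15 (r = 0.927) and Gzmb (r = 0.926). Uba7 and Isg15 encode the activating enzyme and the modifier of the ISG15 system, and Gzmb encodes granzyme B of cytotoxic lymphocytes. Nlrc5 alone was most like Gbp7 (r = 0.914), Jak3 (r = 0.909) and Gpr18 (r = 0.907).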

How the data were processed

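Poly(A) RNA-seq of 16 mouse ileum samples gave paired reads from stranded libraries. The authors aligned reads with TopHat2 to mm10 and deposited raw counts per Ensembl gene, made with htseq by the table's name, with a strand setting that was not given in the sources used here. Each library is 1 labelled mouse. Symbols, exon lengths and coordinates came from GENCODE (GRCm38), and promoter sequences from RefSeq (GRCm38.p6).

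The deposited counts were filtered, TMM-scaled and fitted with the quasi-likelihood test of edgeR 4.0.16 over all 16 libraries, with a Benjamini-Hochberg adjustment over 13811 genes. Log2 CPM used a prior count of 2. Exact permutation tests of ratios used log2(CPM + 0.5) and covered the 5 ratios in both genotypes. The fit was also run on simulated counts, and no result given here rests on that run. Intervals of counting error were not needed, since all 10 genes had 42 or more counts in every library. Alternatives were DESeq2 1.42.0, voom of limma 3.58.1, other scalings and filters, a replicate block, fits on only the groups compared, and leaving out libraries.

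All 10 genes are named in every comparison. From each other list, up to 3 called genes per direction are named by size, Psmb5, Psmb6 and Psmb7 always, and the 5 genes most like the mean of the members. H2-T3, H2-T23, H2-Q6, H2-Q7, Irf1, Ifng, Ciita and the genes most like Nlrc5 were named after their values were seen. The members and lists were chosen with earlier results of these data known.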

Additional observations from a re-analysis of the deposited data

Results flagged for a closer look

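Nlrc5 in fat-1 EtOH replicate 5, at 49.5 CPM, stood apart from the rest of its group, whose next value was 16.4 CPM. The gap was 0.719 of the range of the 5 mice. This was 1 of 30 groups of values examined in this way, and chance marks about 1 in 20. The same library held the highest sums of B cell markers (580 CPM) and of macrophage and dendritic cell markers (591 CPM), and Ciita, the class II transactivator, at 86.2 CPM against 4.28 to 49.9 CPM elsewhere. The part of these cells in the Nlrc5 value was not tested.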

How the results depend on the processing

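For EtOH against PF in fat-1 mice, the 7 genes called became 4 with upper-quartile scaling, 3 with only the groups compared, 4 without the 3 EtOH libraries high in large intestine genes and 1 without the 2 fat-1 PF libraries lowest in ileum genes, both of these chosen after seeing the data. All genes called went from 5170 to 5659 (3906 of them higher, against 2578) with upper-quartile scaling, to 3086 with only the groups compared, and to 4096 and 1965 without those libraries. Leaving out 1 library at a time gave 3 to 9. In WT mice, 0 became 7 with limma voom and 5 with only the groups compared, and stayed 0 in each leave-one-out fit. Genotype and interaction counts were 0 in every alternative run. The causes were not tested.

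The sign of the EtOH difference held in all alternatives for the 9 genes other than Nlrc5, whose log2 fold change became -0.16 in WT mice without the 3 libraries (leave-one-out range -0.15 to 0.54) and -0.21 in fat-1 mice with a replicate block (range -0.14 to 1.19). For fat-1 against WT with EtOH, Nlrc5 was -0.22 with limma voom and -1.22 with the block (range -1.02 to 0.40), and B2m was 0.18 without the 3 libraries, where all 10 genes were above 0. With 1 library left out, H2-K1, Tap1, Tap2, Psmb8 and Psmb9 also took both signs (highest 0.06, 0.13, 0.17, 0.03 and 0.06; lowest -0.15, -0.63, -0.19, -0.60 and -0.54). The Nlrc5 interaction was -0.58 with the block (range -0.33 to 1.08). The H2-K1 to B2m ratio in fat-1 mice differed by 0.08, by -0.30 without the 3 libraries, and by -0.08 to 0.20 with 1 library left out.

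With the replicate number as a block, 9 genes were called in fat-1 and 0 in WT mice, beside 4748 (2318 of them higher) and 18 of all 13811 genes. Same-numbered libraries did not deviate together (mean r = -0.0225 over 21 pairs, 0.00703 over 74 other pairs). This cannot exclude a pairing of some mice, and the labels do not say whether the numbers pair them. The group means of CPM moved by under 1 SD with DESeq2 size factors.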
